A study of Caenorhabditis elegans with 2 samples.

Results

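The DBL-1 pathway is the BMP branch of TGF-beta signalling in Caenorhabditis elegans. The 10 genes described here, dbl-1, sma-2, sma-3, sma-4, sma-6, daf-4, sma-9, sma-10, lon-1 and lon-2, were listed by name and all were matched among the 19973 protein-coding genes of the 6 nuclear chromosomes. Chromatin immunoprecipitation followed by sequencing (ChIP-seq), which maps where a protein sits on DNA, had been carried out on eGFP-tagged CEH-28 in whole mixed-sex larvae of the last larval stage (L4). The worms were of strain OP241, which carries the allele unc-119(ed3) on chromosome III and the transgene wgIs241, an insertion that targets ceh-28. The tagged protein was therefore read from a transgene, in all cells of the animal together. There were 2 biological replicates of this 1 group, both tied to the same control, and no other genotype, stage or treatment.

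DBL-1 is a secreted ligand made mainly by neurons. It binds a receptor complex of SMA-6 (type I) and DAF-4 (type II), which activates the Smad proteins SMA-2, SMA-3 and SMA-4, and these enter the nucleus and act on target genes with SMA-9. In the worm the pathway is best known for setting body size: loss of its activators gives small animals and loss of its inhibitors long ones, hence the names sma and lon. CEH-28 is an NK-2 class homeobox transcription factor that acts in the pharyngeal neuron M4, where dbl-1 is a known target of it.

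Peaks came as 4 lists on the ce11 build: a relaxed list for each replicate, a relaxed list for both replicates pooled, which also holds background, and a list cut by the irreproducible discovery rate (IDR; called thresholded below). Each entry is a summit, the highest point of a called region, with a signal given by the authors, whose scale has no description. The relaxed lists held 23410 summits in replicate 1, 26414 in replicate 2 and 20803 in the pool. The 1739 thresholded summits were the pooled summits of highest signal, at 56.5 or more, and a rank below is a place by signal within a list, 1 being the highest. For each gene all summits were taken from 5000 bp upstream of its start to 2000 bp past its end (the gene window). The windows of the 10 genes were 9.28 to 20.7 kb long and shared no summit. With 1 group there was nothing to test between conditions, so all values below are descriptions; the lists carry no read counts, and depth is unknown.

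The sequences that carry the result are those at the thresholded summits of these genes, of which 4 are shown, with the strongest summit at dbl-1, the gene with the prior link to CEH-28. Each line gives 201 bases on the plus strand of WBcel235 (RefSeq; the same assembly as ce11), 5′ to 3′ and centred on the summit, with ATCGAT, the 6-mer found at most thresholded summits of this data set, and AGAGAG or its complement CTCTCT in capitals. In the order printed, the stretches are chrIII:6863941-6864141, chrIII:5816608-5816808, chrX:10766125-10766325, chrIII:5479597-5479797 and chrV:6758769-6758969.
sma-3, upstream: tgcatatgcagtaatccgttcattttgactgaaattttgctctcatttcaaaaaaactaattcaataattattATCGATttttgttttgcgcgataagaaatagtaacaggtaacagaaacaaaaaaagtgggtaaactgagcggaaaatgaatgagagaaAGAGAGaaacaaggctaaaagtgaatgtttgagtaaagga
sma-4, intron: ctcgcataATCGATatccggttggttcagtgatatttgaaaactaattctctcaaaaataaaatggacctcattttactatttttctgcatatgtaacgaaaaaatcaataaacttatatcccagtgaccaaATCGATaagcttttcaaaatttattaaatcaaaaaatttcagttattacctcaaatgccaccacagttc
sma-9, upstream: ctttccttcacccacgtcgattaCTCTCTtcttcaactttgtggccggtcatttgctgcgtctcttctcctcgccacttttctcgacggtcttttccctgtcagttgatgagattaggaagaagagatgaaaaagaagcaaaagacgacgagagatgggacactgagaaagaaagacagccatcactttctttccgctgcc
lon-1, past the gene end: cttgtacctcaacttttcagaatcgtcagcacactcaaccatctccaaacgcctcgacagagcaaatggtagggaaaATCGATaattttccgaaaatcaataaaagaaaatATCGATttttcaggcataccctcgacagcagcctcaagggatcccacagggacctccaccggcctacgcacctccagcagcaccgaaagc
dbl-1, coding exon: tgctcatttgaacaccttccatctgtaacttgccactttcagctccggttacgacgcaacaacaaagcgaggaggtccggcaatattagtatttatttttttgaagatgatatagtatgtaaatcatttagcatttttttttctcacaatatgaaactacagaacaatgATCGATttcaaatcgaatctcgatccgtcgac

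Of the 10 genes, 4 had a thresholded summit in the gene window, namely sma-3, sma-4, sma-9 and lon-1, against 13.0% of all protein-coding genes. These 4 genes held 5 thresholded summits, since sma-9 had 2; 3.39% of all genes had 2 or more. With all genes split into 4 equal groups by window length, the share with a summit was 9.38, 8.44, 12.3 and 21.97% from the shortest windows to the longest. Among the 8294 genes with windows as long as those of the 10, 17.6% had one. Chromosome also differed, with 21.5% of genes on III and 11.2% of genes on X having a thresholded summit. Of the 5 genes on III (sma-2, sma-3, sma-4, daf-4 and lon-1) 3 had one, and of the pair on X (sma-9 and lon-2) 1 did. In the narrower promoter window, from 1000 bp upstream to 500 bp downstream of the start, 2 of the 10 had a thresholded summit, sma-3 and sma-4, against 3.85% of all genes. All 10 had at least 1 summit of the relaxed pooled list, as did 76.9% of all genes.

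**Figure D1:**
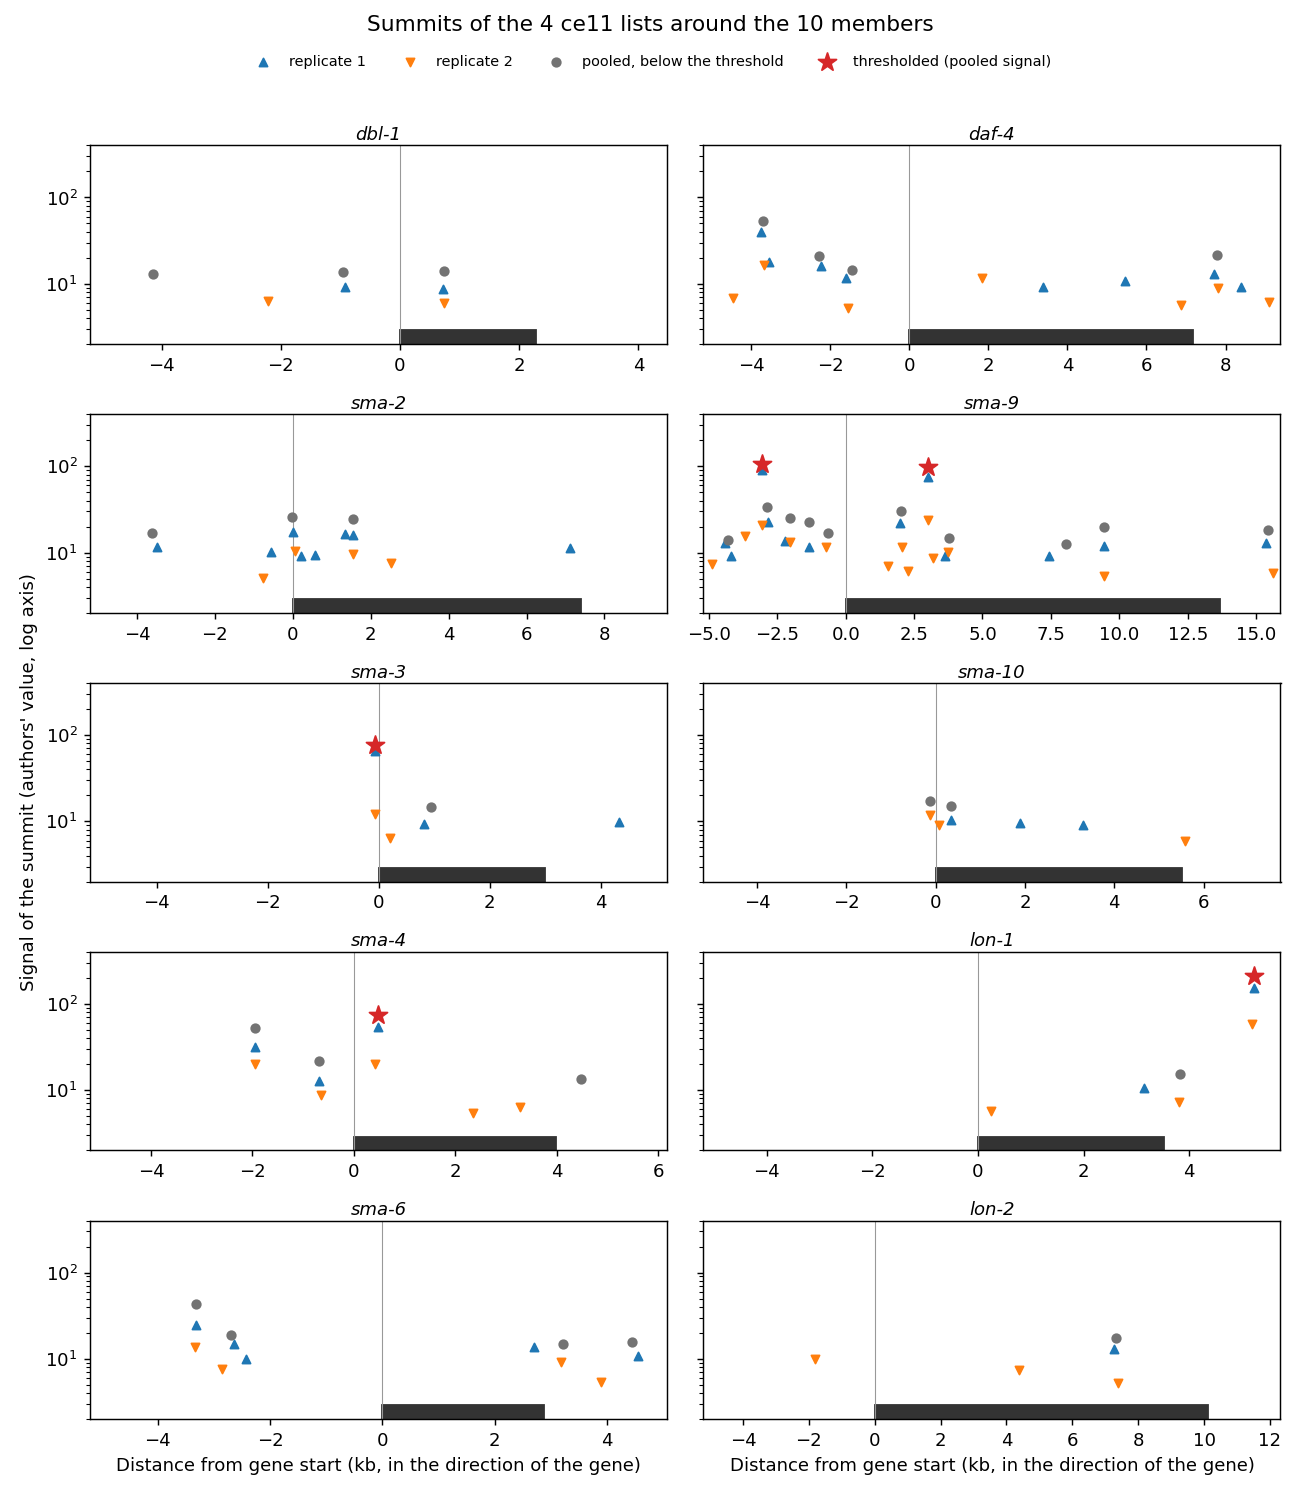
Signal of each summit (authors' value, log axis) against its distance from the gene start in kb, in the direction of the gene, for the 10 genes. Triangles are the replicates' own lists, circles the pooled list below the threshold and stars the thresholded summits, and the dark bar is the gene; stars stand at sma-3, sma-4, sma-9 and lon-1 and none at dbl-1.

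The ligand gene dbl-1 (WBGene00000936, V, 6758135 to 6760418, plus strand) had no thresholded summit, and its weak pooled summits lay in the lowest part of that list. The pooled list held 3 in its window. The first lay 4152 bp upstream of the start (signal 13.0, rank 19923 of 20803) and no region of either replicate overlapped it. The second lay 960 bp upstream, in the non-coding gene T25F10.9, with a pooled signal of 13.6 at rank 18455. Of the replicates, only replicate 1 had a region there, with a signal of 9.19 at rank 21343. The third, the highest, was in a coding exon of dbl-1, 734 bp downstream of the start, with a pooled signal of 14.2 at rank 17146. It was the only place at dbl-1 seen in both replicates, at 8.80 in replicate 1 (rank 22828) and 6.03 in replicate 2 (rank 17450). Replicate 2 had 1 further summit, 2209 bp upstream (6.41, rank 15604). The pooled signals stood near the floor of their list, where the lowest signal was 12.6, and 71.0% of all genes had a higher or equal highest pooled signal in their windows. The nearest thresholded summit lay 101215 bp from the dbl-1 start. In whole larvae, signal from few cells and no binding cannot be told apart.

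The printed dbl-1 stretch holds 1 ATCGAT, whose first base lies 69 bp to the right of the summit in the coding exon. Its window held 3 ATCGAT sites in all, this one included, all in coding exon. Measured to the middle of each site, they lay 806, 853 and 910 bp downstream of the start. A site of NK-2 class proteins, taken as TCAAGTG or TTAAGTG on either strand, was found at 2 places in the window. These were centred 2513 bp upstream of the start and 2937 bp downstream of it, the latter past the gene end. They lay 1553 and 2203 bp from the nearest pooled summit, so no summit of the pooled list at dbl-1 had the NK-2 letters within 100 bp.

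Neither receptor gene had a thresholded summit. The highest pooled summit of each lay upstream, just below the threshold at daf-4 and further below it at sma-6. At daf-4 (WBGene00000900, III, 5625135 to 5632323), the type II receptor, the highest pooled summit lay between genes 3700 bp upstream (chromosome III, 5621243 to 5621626). Its signal of 52.9, rank 1917, fell just short of the lowest thresholded signal of 56.5. Replicate 1 gave 39.8 (rank 1911) and replicate 2 gave 16.5 (rank 1968), so the rank was nearly the same in both. The stretch between this summit and the gene held 2 weaker pooled summits, 2277 and 1450 bp upstream, at ranks 8641 and 16929. At sma-6 (WBGene00004860, II, 6324484 to 6327355), the type I receptor, the highest lay 3310 bp upstream (chromosome II, 6320982 to 6321365), with a pooled signal of 43.1 at rank 2589. It measured 24.7 in replicate 1 (rank 3963) and 13.9 in replicate 2 (rank 2758). That summit was 15 bp upstream of the start of another gene, efr-3, which was its nearest start. None of the pooled summits at the receptor genes had ATCGAT or the NK-2 letters within 100 bp except 1 weak pooled summit 4442 bp past the sma-6 start (signal 15.8), with 2 ATCGAT sites.

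Of the 3 Smad genes, sma-3 as well as sma-4 had a thresholded summit in the promoter window, and sma-2 had none in its gene window. At sma-3 (WBGene00004857, III, 6860974 to 6863968, minus strand), which encodes a receptor-regulated Smad, the summit lay 73 bp upstream of the start, between genes (chromosome III, 6863849 to 6864232). Its pooled signal was 77.4, rank 1079. Replicate 1 gave 64.7 (rank 921) and replicate 2 gave 12.2 (rank 3702). The ratio between replicates, 5.32, was reached or passed by 6.12% of all thresholded summits, and rank 3702 lies outside the 1739 highest summits of replicate 2, so that without replicate 1 sma-3 had no summit of that rank and the promoter count was 1 of the 10 genes, with sma-4 left. The printed sma-3 stretch has 1 ATCGAT, starting 27 bp to the left of the summit.

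At sma-4 (WBGene00004858, III, 5816232 to 5820204, plus strand), which encodes the co-Smad, the thresholded summit lay in an intron 476 bp downstream of the start (chromosome III, 5816516 to 5816899). Its pooled signal was 74.4 at rank 1146, with 54.0 in replicate 1 (rank 1200) and 20.1 in replicate 2 (rank 1356). Both replicates thus placed it among their 1739 highest. The printed stretch has 2 ATCGAT sites, starting 92 bp to the left and 32 bp to the right of the summit. A second place, 1946 bp upstream of sma-4, had a pooled signal of 51.9 at rank 1982, just under the threshold, and 1 ATCGAT site. In replicate 2 this place stood slightly above the intronic one (20.3 against 20.1, rank 1326), while in replicate 1 it stood lower (31.8, rank 2685). Its nearest start was that of R12B2.7, at 759 bp, and not that of sma-4.

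The other receptor-regulated Smad gene, sma-2 (WBGene00004856, III, 8749680 to 8757089, plus strand), had 3 pooled summits, all weak. The highest, 14 bp upstream of the start and in an intron of ugtp-1, had a signal of 25.8 at rank 6066. It measured 17.4 in replicate 1 (rank 7188) and 10.5 in replicate 2 (rank 5221). The next, in an intron of sma-2 1540 bp downstream of its start, had a pooled signal of 24.7 at rank 6494, with 16.4 and 9.58 in the replicates, and its nearest start was that of ugtp-1, at 514 bp. The last lay between genes 3620 bp upstream (16.9, rank 12679), with a region in replicate 1 alone and ZK370.6 as its nearest start. The 3 Smad genes thus did not share a level, with sma-2 at a pooled signal of 25.8 and the other two at 77.4 and 74.4. None of the 3 pooled summits of sma-2 had ATCGAT or the NK-2 letters within 100 bp.

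The gene with the most summits was sma-9 (WBGene00004862, X, 10769282 to 10782973, plus strand), which encodes a zinc-finger protein of the Schnurri family that acts with Smads in the nucleus. Its window, the longest of the 10 at 20.7 kb, held 12 pooled summits, and 0.606% of all genes had as many or more. Per length this was 5.80 summits per 10 kb, which 5.34% of genes reached, against a median of 1.69 over all genes and 2.45 over the 10. The higher thresholded summit lay between genes 3057 bp upstream (chromosome X, 10766033 to 10766416), with a pooled signal of 107 at rank 679. It measured 90.5 in replicate 1 (rank 575) and 21.1 in replicate 2 (rank 1254). The other lay in the first long intron, 3009 bp downstream of the start and 790 bp upstream of an annotated internal transcript start. Its pooled signal was 97.2 at rank 775, with 74.3 in replicate 1 (rank 763) and 23.7 in replicate 2 (rank 1020). The order of the pair differed between replicates: the upstream summit was higher in replicate 1 and the intronic one in replicate 2.

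Between these sma-9 summits the pooled list held a run of weaker ones at 2858, 2037, 1336 and 629 bp upstream (33.3, 25.1, 22.6 and 16.7) and at 2008 bp downstream (30.6). The first overlaps the same replicate regions as the upstream thresholded summit. The printed sma-9 stretch, that of the upstream summit, has no ATCGAT but holds 1 CTCTCT, starting 77 bp to the left of the summit. The weaker summit 1336 bp upstream was the only pooled summit of the 10 genes with the NK-2 letters within 100 bp. Replicate 1 had a summit at the same base (11.6) and no region of replicate 2 overlapped it.

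**Figure D2:**
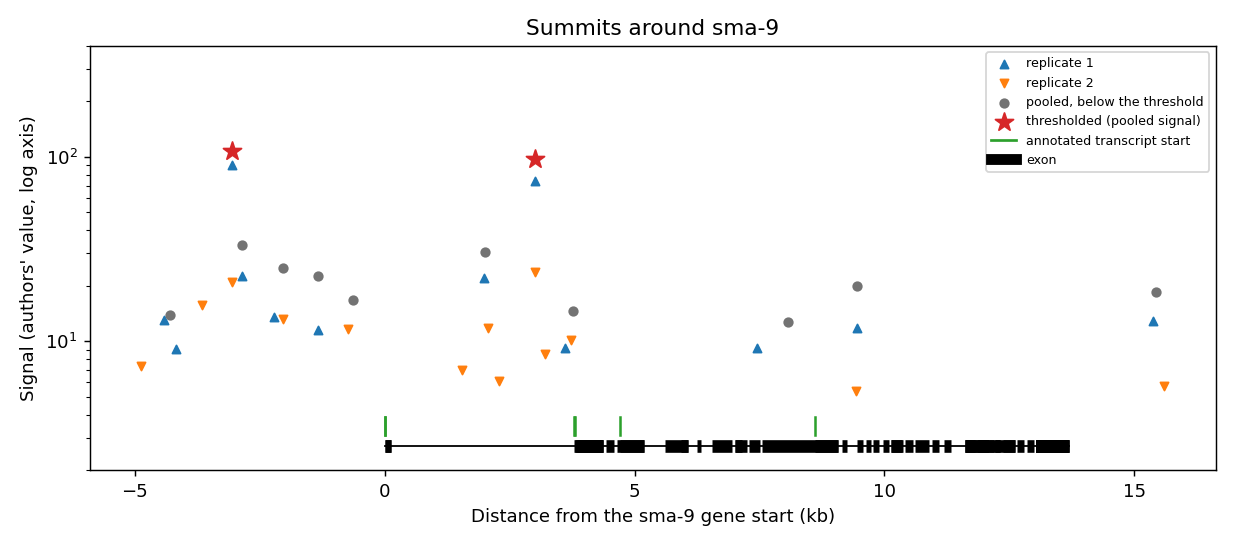
Signal of each summit (authors' value, log axis) against distance from the sma-9 gene start in kb. Black boxes are exons, green lines annotated transcript starts (6 distinct starts over 16 transcripts, at 0, 6, 3799, 3809, 4717 and 8620 bp); the stars, at 107 and 97.2, stand upstream of the gene and in the long first intron.

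The highest signal of the 10 genes was that of lon-1, but the summit belonged to its neighbour by position. lon-1 (WBGene00003055, III, 5474476 to 5478005, plus strand) encodes a secreted protein of the cysteine-rich CRISP family that limits body size and whose expression the pathway lowers. Its thresholded summit lay 1692 bp past the gene end, in an intron of R02F2.5 and 379 bp downstream of the start of that gene (chromosome III, 5479592 to 5479816). The pooled signal was 211 at rank 255, with 152 in replicate 1 (rank 270) and 58.4 in replicate 2 (rank 256), and the rank was thus alike in all 3 lists. The printed stretch has 2 ATCGAT sites, starting 23 bp to the left and 11 bp to the right of the summit. At the lon-1 start itself, the only summit of any list within 1000 bp was one of replicate 2, 254 bp downstream, with a signal of 5.76. The only other pooled summit of the window lay 3834 bp from the start, past the end (15.5, rank 14852).

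Low values were found at lon-2 and sma-10. lon-2 (WBGene00003056, X, 4738964 to 4749083, minus strand) encodes a glypican that binds DBL-1 and holds signalling down. It had 1 pooled summit in a 17.1 kb window, in an intron 7322 bp downstream of the start (17.6, rank 11754), with 13.2 in replicate 1 (rank 11584) and 5.31 in replicate 2 (rank 21801). Replicate 2 alone had a summit 1815 bp upstream (9.87, rank 6000) with an NK-2 site within 100 bp. sma-10 (WBGene00020649, IV, 274420 to 279943, plus strand) encodes a transmembrane protein of the LRIG family that promotes signalling. Its highest pooled summit lay 135 bp upstream of the start, with a signal of 17.3 at rank 12201. Replicate 2 gave 11.96 there (rank 3852), and replicate 1 had no overlapping region. A second lay in a coding exon 335 bp downstream of the start (15.1, rank 15434), with 1 ATCGAT site and regions in both replicates (10.29 and 9.003). The nearest thresholded summit was 169446 bp from the sma-10 start and 37118 bp from that of lon-2.

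Ordered by the highest pooled signal in the window, the genes ran from lon-1 (211) over sma-9 (107), sma-3 (77.4), sma-4 (74.4), daf-4 (52.9), sma-6 (43.1), sma-2 (25.8), lon-2 (17.6) and sma-10 (17.3) to dbl-1 (14.2). With 1 pooled value each, no spread stands behind this order. By the highest signal in the window, replicate 1 gave the same order, with sma-3 above sma-4 (64.7 against 54.0). Replicate 2 did not: there sma-3 (12.2) stood below sma-4 (20.3), daf-4 (16.5) and sma-6 (13.9). In that replicate sma-10 (11.96) also stood above sma-2 (10.5) and lon-2 (9.87). The median was 48.0 over the 10 genes and 20.7 over all genes, with no allowance for window length. Of all genes, 1.94% had a highest signal at or above that of lon-1, 4.96% at or above that of sma-9, 8.04 and 8.48% at or above those of sma-3 and sma-4, and 71.0% at or above that of dbl-1. In summits per length, the windows of the 10 genes held 3.86 thresholded summits per 100 kb against 1.73 over the chromosomes, and 28.6 pooled summits against 20.7. These rates were not matched for chromosome or for nearness to genes.

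**Figure D3:**
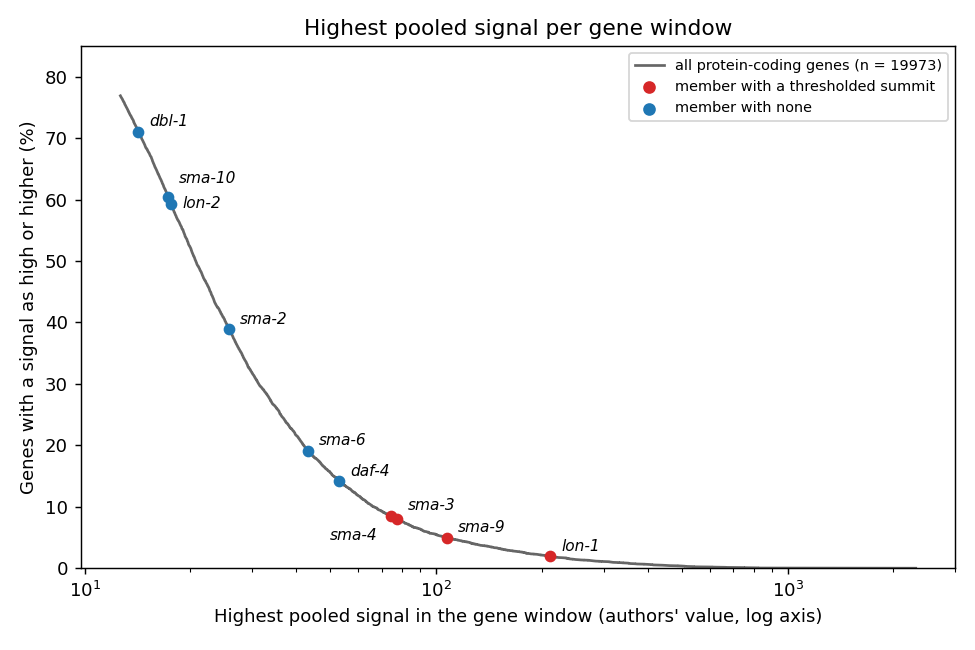
Share of the 19973 protein-coding genes with a highest pooled signal in the gene window as high or higher (%), against that signal (authors' value, log axis). The grey line is all genes, red points are the 4 genes with a thresholded summit and blue points the 6 without; dbl-1 lies at 71.0% and lon-1 at 1.94%.

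Both replicates had a region at each of the 5 thresholded summits, and the signal was higher in replicate 1 at all 5. The ratio of replicate 1 to replicate 2 was 2.61 at lon-1, 2.69 at sma-4, 3.14 and 4.29 at the intronic and upstream summits of sma-9 and 5.32 at sma-3. The median, 3.14, compares with 2.76 over all thresholded summits, of which 1724 of 1733 found in both replicates were higher in replicate 1. The signals of the replicates were thus not on one level, and the medians of the whole lists were 13.1 and 6.96. Of the 32 weaker pooled summits in the windows, 18 overlapped a region in both replicates, 7 in replicate 1 alone, 4 in replicate 2 alone and 3 in neither. Over all weaker pooled summits 52.1% had both. The deposited −log10 q value was at its maximum, 3.76, for the 5 thresholded summits, for daf-4 at 3700 bp, sma-4 at 1946 bp and sma-6 at 3310 bp upstream, and for 2882 pooled summits in all, so it did not order them.

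**Figure D4:**
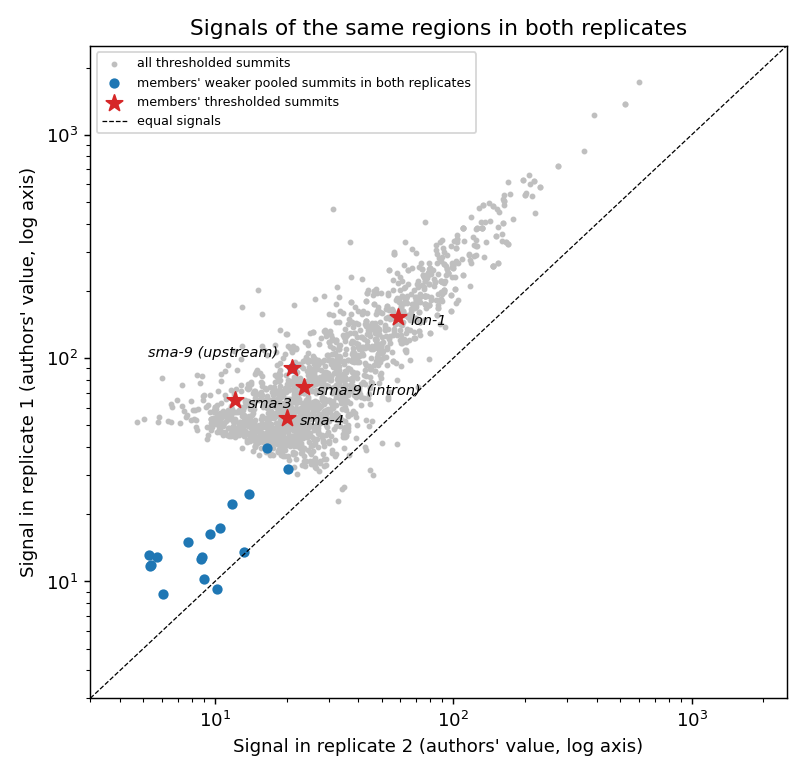
Signal in replicate 1 against signal in replicate 2 for the same regions (authors' values, both axes log). Grey points are all thresholded summits, red stars the 5 at these genes and blue points the weaker pooled summits of these genes found in both replicates, 1 of which lies under the star of the upstream sma-9 summit; the dashed line marks equal signals, and all 5 stars lie above it, with sma-3 farthest from it.

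By position, 22 of the 37 pooled summits in the windows lay between genes, 11 in introns, 3 in coding exons and 1 in a non-coding gene. Over all pooled summits, 34.8% lay between genes, 33.6% in introns and 19.2% in coding exons. The windows reach upstream by design, so their share between genes cannot be read against the whole list. Of the 37, 19 were upstream of the gene they were counted for, 11 inside it and 7 past its end. For 23 of the 37 the gene itself had the nearest protein-coding start, and this held for 4 of the 5 thresholded summits, the exception being that of lon-1.

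ATCGAT lay within 100 bp of 3 of the 5 thresholded summits (sma-3, sma-4 and lon-1, all on III) and of neither sma-9 summit on X. Within 200 bp the share was 80% of the 5, and no share over all summits is given at that distance. Over all thresholded summits the share within 100 bp was 76.1%, with 77.5% on III and 47.2% on X. It was 6.50% of 201-base tiles of the genome, searched on both strands, on which ATCGAT reads the same. Among the 32 weaker summits of the windows 6 had it, against 26.1% of all weaker pooled summits. AGAGAG or CTCTCT lay at 3 of the 5, that of sma-3 and both of sma-9, against 20.9% of all thresholded summits, 37.4% of those on X and 8.09% of tiles. The NK-2 letters lay at none of the 5 (0 of 5, at a share of 2.82% over all thresholded summits and 4.47% of tiles) and at 1 of the 32 weaker ones, against 4.39% of all weaker pooled summits. In the whole windows there were 44 NK-2 sites, or 3.40 per 10 kb against 2.35 in the genome, 46 ATCGAT sites, or 3.55 against 3.75, and 127 AGAGAG or CTCTCT sites, or 9.80 against 6.49. The windows of the 10 genes were thus richer than the genome in the AGAGAG and NK-2 letters and not in ATCGAT, and none of these letters shows that a protein was bound.

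Further genes were read the same way from a list of 23. It held modulators and partners of the pathway, the sister DAF-7 branch, other TGF-beta family ligands and other body-size genes. Of these, 4 had a thresholded summit in the gene window and 19 had none, against 13.0% of all genes. They were tsp-21, a tetraspanin that promotes DBL-1 signalling (signal 84.1, rank 948), daf-3, the co-Smad of the DAF-7 branch (78.9, rank 1055), sup-17, an ADAM protease (67.1, rank 1331), and bli-4, a proprotein convertase (61.8, rank 1511). The tsp-21 summit lay in an intron 152 bp downstream of its start, with 63.8 in replicate 1 and 26.8 in replicate 2. That of daf-3 lay 676 bp upstream (58.2 and 23.4) and that of sup-17 372 bp upstream, in the non-coding gene DY3.11 (50.6 and 12.7). The bli-4 summit lay in an intron 13287 bp downstream of the gene start, nearer to the start of mut-2 (37.8 and 21.6). The highest pooled signal in the window had a median of 26.1 over the 23 genes. Of the DAF-7 branch, daf-3 was thus the member with a thresholded summit, and daf-7, daf-1, daf-8, daf-14 and daf-5 had none, nor had the ligand genes unc-129 and tig-2.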

How the data were processed

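ChIP-seq of eGFP-tagged CEH-28 in whole L4 larvae was deposited as narrowPeak lists. The signal of each peak and its −log10 q value are the authors' deposited values, called against 1 control shared by both replicates, per the lineage notes deposited with the lists. Neither labels nor notes name the aligner or the program that called peaks. Of the deposited lists, the 4 on ce11 were used and those on ce10 were not used here. Genes came from Ensembl release 115 on WBcel235, and bases from the RefSeq copy of that assembly; the gene start is the outermost start of the Ensembl gene.

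Computed from the lists were summits in the gene windows, ranks by signal, distances, annotation classes (coding exon before UTR before intron), the highest replicate summit whose region overlapped a pooled region by at least 1 bp, and sites of 3 motifs within 100 bp of a summit, each on both strands with overlaps counted. No test was run. The 10 genes, the further list of 23 and the 6-mers were chosen with earlier results of these data known. All 10 genes were named, as were, by rule, the further genes with a thresholded summit and the gene nearest to each thresholded summit at the 10. The other neighbouring genes were named after their values were seen. The sequence at 1 thresholded summit is not reported here. The counting was tested on simulated data. Alternatives covered windows, thresholds, overlap rules and each replicate alone. The number of reads per sample is unknown, which leaves signals without an interval. Scripts ran under Python 3.11.15 with pandas 2.3.3, numpy 2.4.6 and scipy 1.17.1, and plots were drawn in matplotlib 3.10.9.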

Additional observations from a re-analysis of the deposited data

How the results depend on the processing

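Of 40 alternative values of the main counts and shares, 33 stayed the same, which meant a count within 1.5 times the reported one, a share with ATCGAT within the Wilson 95% interval of the reported 3 of 5 (23.1 to 88.2%, counting error only) or a replicate ratio within 1 SD over the 5 summits (1.17). With the thresholded summits at or above the list's median signal, 2 of the 10 genes had one in the gene window (sma-9 and lon-1, against 6.39% of all genes), 0 had one in the promoter window, 3 summits were left and 0 of the 23 further genes had one; this setting keeps the upper part of the list by construction. With 2000 bp upstream to the gene end, 3 genes had one (sma-3, sma-4 and sma-9), against 7.56% of all genes. In these shorter windows 3 thresholded and 20 pooled summits remained, and lon-1 lost its only thresholded summit. With 10000 bp upstream and 5000 bp past the end, 5 genes had one, sma-6 being added, against 19.8% of all genes. With 1 replicate left out, the genes with a summit in the gene window were 3 to 4 (sma-3 lost without replicate 1). Of all genes, 12.8% had one, whichever replicate was left out. Those of the 10 with one in the promoter window were 1 to 2, the summits 5 either way and the relaxed summits 46 to 47. For the promoter window no share over all genes is given at these alternative settings. The 5 summits without replicate 1 were not the 5 reported: that of sma-3 (rank 3702 in replicate 2) dropped out and that upstream of sma-4 (rank 1326) came in. No paired analysis was possible because both replicates belong to 1 group. Depth is unknown, so a low signal, as at dbl-1, sets no bound on binding in M4.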
